A study of Mus musculus with 39 samples.

Results

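Microglia sorted from mouse brain late in gestation, at E18.5, were compared with microglia sorted at E12.5, the number being the embryonic day. Only libraries of 1 number series, R8, entered the comparison, which left 6 of the 39 libraries of the study: 3 of E18.5 and 3 of E12.5. The embryos were C57Bl/6 from timed matings, and no treatment or altered allele is recorded for any group, which leaves stage as the labelled difference. The E12.5 libraries are replicates 1, 2 and 3 and the E18.5 libraries are replicates 2, 3 and 4, and values are given in that order throughout. Replicate 1 of E18.5 carries a number of the other series, R10, and was kept out of the comparison and shown beside it. Border-associated macrophages (BAM) of the same 2 stages and the same series, 3 libraries each, served to ask whether a change differed between the populations. The labels give neither the surface markers of the sort gates nor the litters, so p-values measure the spread between these libraries, which may be technical.

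Microglia are the macrophages of the brain parenchyma. They descend from yolk sac progenitors that enter the early embryonic brain, divide there and settle as the tissue grows, and they depend on signalling through the CSF1 receptor. Over development they take on the genes that mark the adult cell, such as those of purine sensing and TGF-beta dependent identity, while they clear dying cells and prune developing fibre tracts. BAM sit in the meninges, the perivascular spaces and the choroid plexus.

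The 6 libraries held between 10692763 and 23529992 counts, the shallowest being E18.5 replicate 2. No 2 of them had identical values, and every pair differed by more than sampling noise. In a principal component analysis of the 500 genes that varied most, component 1 (55.2% of variance) placed E12.5 libraries between -38.4 and -24.3. It placed E18.5 libraries between 30.7 and 38.8. Macrophage markers were high in all 6 libraries, with Csf1r, the receptor that microglia need to survive, at 7264, 6452 and 5449 CPM at E12.5 and 12160.0, 11778 and 11576 CPM at E18.5. CPM is the count of a gene per 1e+06 counts of its library, after TMM scaling. Defining markers of other cells were present at low levels: the summed erythroid list ran from 620 to 757 CPM at E12.5 and from 186 to 276 at E18.5, the neuronal list from 270 to 468 and from 130 to 206, and the list of radial glia, astrocytes and oligodendrocytes from 441 to 595 and from 234 to 327. Of the granulocyte and mast cell list, between 6 and 12 genes were at 0 in each library. In sorted populations measured in bulk, fewer cells of a type and less RNA per cell cannot be told apart.

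Of 20450 genes tested, 1637 were called at a Benjamini-Hochberg adjusted p under 0.05 in edgeR's quasi-likelihood test, 867 higher at E18.5 (4.24%) and 770 lower (3.77%). A change of at least 2-fold was fitted for 363 of the higher and 317 of the lower genes. The libraries of the 2 stages did not overlap in level for 851 of the higher and 747 of the lower genes, and for 5482 genes of all tested. The median log2 fold change over all genes was -0.035. Scaling by library totals alone, with no TMM factors, moved that median to -0.139 and gave 701 higher and 1484 lower genes, so that 32.1% of the calls were higher in place of 53.0%. The number of calls also moved with single libraries: it was 977 without E12.5 replicate 3 (673 higher and 304 lower), 1012 without E18.5 replicate 2 and 1033 without E18.5 replicate 4.

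**Figure D1:**
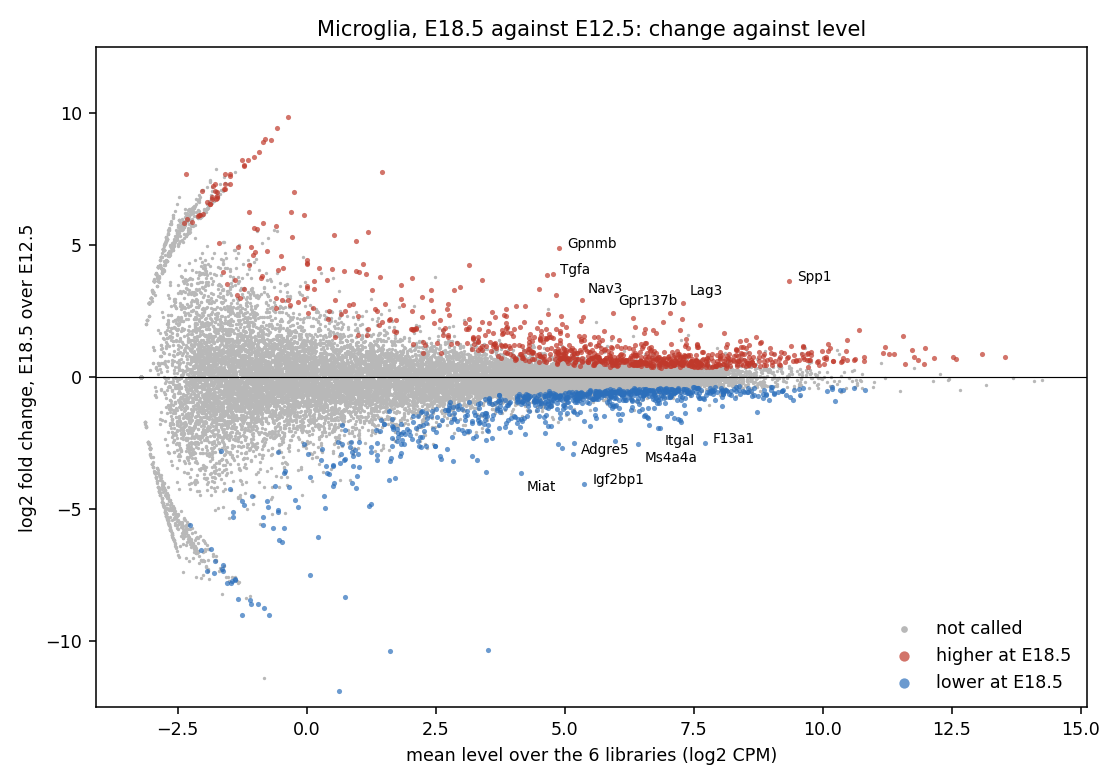
Log2 fold change of microglia from E12.5 to E18.5 against the mean level over the 6 libraries in log2 CPM, with 1 point per tested gene, the 867 genes called higher in red and the 770 called lower in blue. Labelled genes are among the largest changes at a mean of at least 4 log2 CPM, such as Gpnmb (4.90) and Spp1 (3.66) among the higher genes and Igf2bp1 (-4.04) and Miat (-3.64) among the lower ones.

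The largest rises at an average level of at least 4 log2 CPM were in genes of membrane glycoproteins, growth factors and receptors. Gpnmb (GRCm38 chr6:49036546-49070929), a transmembrane glycoprotein of phagocytic macrophages, was at 7.91, 3.90 and 4.80 CPM at E12.5 and 133, 181 and 179 CPM at E18.5 (log2 fold change 4.90 ± 0.74, edgeR adjusted p = 0.000403), where the error is the standard error of the fit. Spp1 (chr5:104435118-104441050), which encodes the secreted matrix protein osteopontin, was at 261, 135 and 168 CPM at E12.5 and 2109, 2624 and 2388 CPM at E18.5 (log2 fold change 3.66 ± 0.28, edgeR adjusted p = 9.99e-08). Spp1 was thus the most abundant of the 12 genes with the largest rises, and for both genes the lowest E18.5 library lay above the highest of E12.5. Tgfa (chr6:86195223-86275719), a ligand of the EGF receptor, was at 8.27, 9.46 and 3.97 CPM at E12.5 and 121, 104 and 98.2 CPM at E18.5 (log2 fold change 3.90 ± 0.33, edgeR adjusted p = 1.17e-07). Lag3 (chr6:124904361-124911705), an inhibitory receptor that binds MHC class II, was at 67.8, 66.99 and 44.2 CPM at E12.5 and 428, 462 and 383 CPM at E18.5 (log2 fold change 2.83 ± 0.19, edgeR adjusted p = 1.97e-09). Groups did not overlap for either gene, and the 3 libraries of a stage lay close together for Lag3.

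Osm, which encodes the cytokine oncostatin M, was at 5.09, 7.13 and 11.2 CPM at E12.5 and 52.4, 245 and 45.2 CPM at E18.5 (log2 fold change 3.86 ± 0.57, edgeR adjusted p = 0.0002). Socs3, an inhibitor of cytokine signalling that oncostatin M is known to induce, was at 41.1, 69.4 and 73.9 CPM at E12.5 and 282, 571 and 148 CPM at E18.5 (log2 fold change 2.44 ± 0.52, edgeR adjusted p = 0.00685). E18.5 replicate 3 was the highest library for both, and without it the log2 fold changes were 2.63 for Osm (edgeR adjusted p = 0.000297) and 1.80 for Socs3 (0.0365). Nav3, a protein that guides growing microtubules, was at 24.2, 13.98 and 8.20 CPM at E12.5 and 127, 106 and 114 CPM at E18.5 (log2 fold change 2.91 ± 0.43, edgeR adjusted p = 0.000188). Gpr165, an orphan receptor, rose by 3.34 ± 0.38 on the log2 scale, Pmp22, a membrane protein best known from myelin, by 3.14 ± 0.32, and Gpr137b, a lysosomal membrane protein, by 2.45 ± 0.18. Liph, a phospholipase, rose by 2.70 ± 0.32, and Slc1a3, the glial glutamate transporter, by 2.69 ± 0.57 from 6.55 to 42.4 CPM on average. Slc1a3 is also a marker of astrocytes, and other astrocyte genes moved with it, as given below.

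The steepest fall at that level was in Igf2bp1 (chr11:95957163-96005940), an RNA-binding protein of fetal and growing cells, at 149, 194 and 174 CPM at E12.5 and 9.56, 7.57 and 14.03 CPM at E18.5 (log2 fold change -4.04 ± 0.18, edgeR adjusted p = 1.95e-12). Miat, a long noncoding RNA, was at 82.9, 39.2 and 71.4 CPM at E12.5 and 5.46, 3.33 and 6.70 CPM at E18.5 (log2 fold change -3.64 ± 0.71, edgeR adjusted p = 0.00319). Adgre5 (chr8:83723251-83741326), the adhesion receptor CD97 of leukocytes, was at 81.9, 131 and 83.5 CPM at E12.5 and 13.9, 10.9 and 14.9 CPM at E18.5 (log2 fold change -2.90 ± 0.25, edgeR adjusted p = 1.38e-07). In all 3 genes every E18.5 library lay below every E12.5 library by a wide margin. Itgal (chr7:127296260-127335138), the alpha chain of the leukocyte integrin LFA-1, was at 209, 273 and 188 CPM at E12.5 and 40.8, 71.3 and 64.9 CPM at E18.5 (log2 fold change -1.92 ± 0.18, edgeR adjusted p = 4.16e-07). Ms4a4a, a membrane protein of macrophages, was at 199, 146 and 303 CPM at E12.5 and 26.04, 51.6 and 34.1 CPM at E18.5 (log2 fold change -2.53 ± 0.27, edgeR adjusted p = 3.48e-06). Mest, an imprinted gene expressed from the paternal copy, fell by 2.67 ± 0.34 on the log2 scale, Emb, a cell adhesion glycoprotein, by 2.50 ± 0.27, Dok2, an adaptor that dampens kinase signalling, by 2.39 ± 0.26, and Pcbp4, an RNA-binding protein, by 2.15 ± 0.39. Lgals1, which encodes galectin-1, fell by 2.11 ± 0.35 and was highest in E12.5 replicate 3, without which the log2 fold change was -1.37 (edgeR adjusted p = 0.00197). Exons of Mest, Adgre5 and Miat overlap those of a gene on the opposite strand over 23.1%, 23.8% and 24.3% of their length in GENCODE vM21, and whether the counting used strand is not given in the sources used here. The same holds for Ms4a6c (53.1%) and Igf2bp3 (18.7%), and Spp1 overlaps a predicted gene on its own strand over 18.8%.

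**Figure D2:**
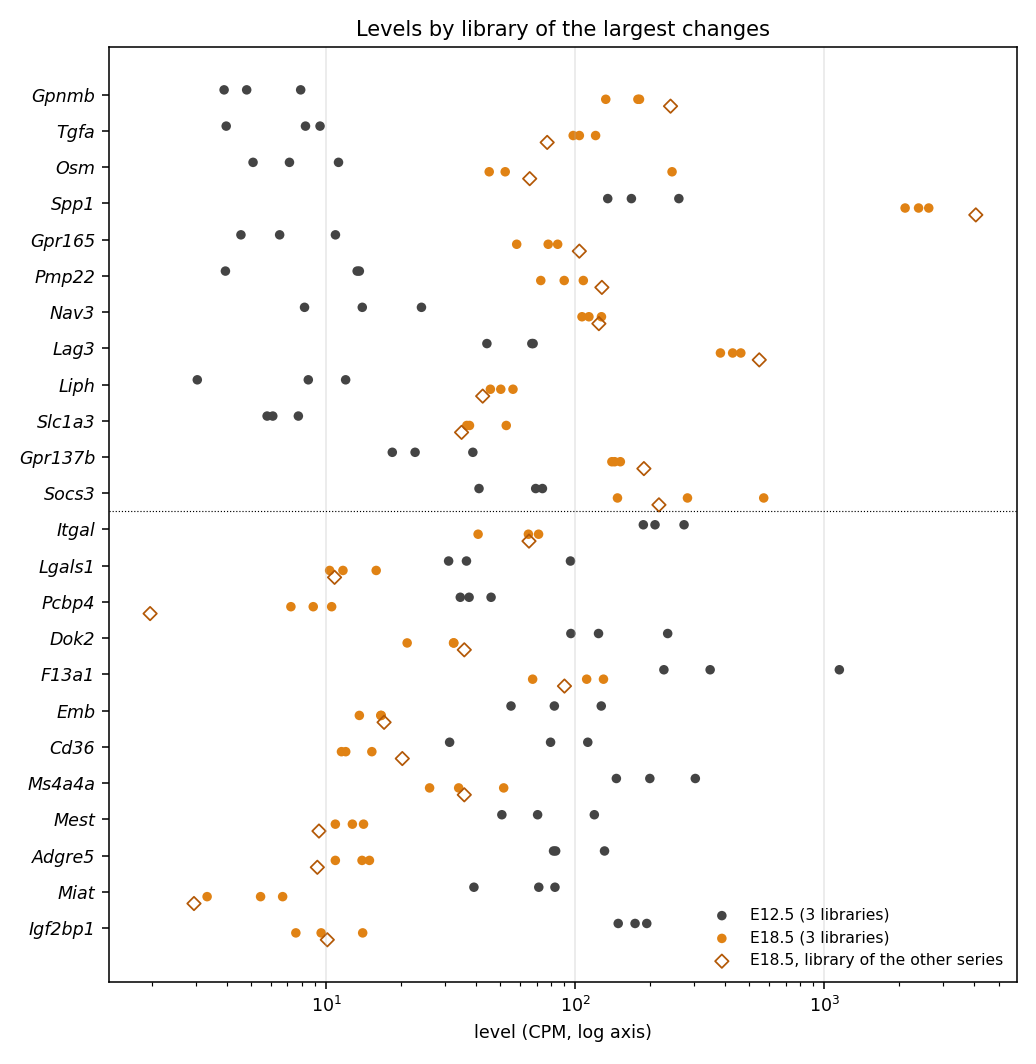
Level in CPM on a log axis of the 12 genes with the largest rises (above the dotted line) and the 12 with the largest falls among called genes with a mean of at least 4 log2 CPM, with 1 dot per library (E12.5 black, E18.5 orange) and the E18.5 library of series R10 as an open diamond. In all 24 genes the 3 dots of one stage lie clear of the 3 of the other, and F13a1 and Osm show 1 library far from the other 2 of its stage.

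Most of the genes that mark microglia rose. Of 25 genes of the microglia identity list, 16 were higher (4.24% of all genes tested were) and 0 were lower, with a median log2 fold change of 1.12. Crybb1, a crystallin used as a microglia marker, was at 78.9, 61.9 and 74.6 CPM at E12.5 and 340.2, 366 and 299 CPM at E18.5 (log2 fold change 2.22 ± 0.19, edgeR adjusted p = 1.07e-07). Fcrls, an Fc receptor-like scavenger receptor, was at 3146, 2633 and 2474 CPM at E12.5 and 6124, 6045 and 5809 CPM at E18.5 (log2 fold change 1.12 ± 0.11, edgeR adjusted p = 5.96e-07). Stages did not overlap for either gene. P2ry12, the ADP receptor that steers microglial processes, was at 1284, 1086 and 662 CPM at E12.5 and 2341, 1860.3 and 1819.7 CPM at E18.5 (log2 fold change 0.99 ± 0.18, edgeR adjusted p = 0.00123). Cx3cr1, the receptor for neuronal fractalkine, was at 4336, 3932 and 2528 CPM at E12.5 and 5797, 5899 and 6274 CPM at E18.5 (log2 fold change 0.74 ± 0.14, edgeR adjusted p = 0.00121). E12.5 replicate 3 was the lowest library for P2ry12 and Cx3cr1.

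Some well-known microglia genes did not pass. Tmem119, a membrane protein used to tell microglia from other macrophages, was at 689, 848 and 615 CPM at E12.5 and 987, 1101 and 1012 CPM at E18.5 (log2 fold change 0.53 ± 0.20, edgeR adjusted p = 0.114). Sall1, the transcription factor that maintains microglial identity, was at 200.2, 188 and 124 CPM at E12.5 and 407, 364 and 328 CPM at E18.5 (log2 fold change 1.10 ± 0.37, edgeR adjusted p = 0.0803). For both genes the libraries of the 2 stages did not overlap, as held for 5482 of the 20450 genes tested, and neither gene was called. Selplg, a selectin ligand, was called (log2 fold change 0.68 ± 0.14, edgeR adjusted p = 0.00254), as was Siglech, a sialic acid-binding receptor (log2 fold change 1.14 ± 0.19, edgeR adjusted p = 0.000452). Of the 16 genes of the macrophage lineage list 9 were higher and 1 lower, beside 4.24% and 3.77% of all genes tested. The higher ones included Csf1r (log2 fold change 0.89 ± 0.11, edgeR adjusted p = 2.24e-05), Mertk, a receptor for apoptotic cells, (log2 fold change 1.13 ± 0.16, edgeR adjusted p = 6.02e-05), and Cd68, a lysosomal membrane protein, (log2 fold change 0.91 ± 0.13, edgeR adjusted p = 8.93e-05). The lower one was Aif1, which encodes the calcium-binding protein Iba1, (log2 fold change -0.89 ± 0.21, edgeR adjusted p = 0.00897), and no member of the list was lower in the fits without E12.5 replicate 3 or without E18.5 replicate 2. Lyz2, the lysozyme of macrophages, was at 731, 963 and 1007 CPM at E12.5 and 778, 1011 and 861 CPM at E18.5 (log2 fold change -0.03 ± 0.16, edgeR adjusted p = 0.956).

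Among genes known from border macrophages and from early embryonic macrophages, more fell than rose. Of 23 tested, 10 were lower (3.77% of all genes were) and 1 higher, with a median log2 fold change of -1.04. Ccr1, a chemokine receptor, was at 214, 242 and 254 CPM at E12.5 and 80.8, 90.9 and 72.4 CPM at E18.5 (log2 fold change -1.54 ± 0.10, edgeR adjusted p = 1.97e-09). Ms4a6c, a macrophage membrane protein, was at 76.2, 82.2 and 121 CPM at E12.5 and 23.4, 42.1 and 34.9 CPM at E18.5 (log2 fold change -1.47 ± 0.22, edgeR adjusted p = 0.000117). For both genes all E18.5 libraries lay below all E12.5 libraries. Cd36, a scavenger receptor for lipids, was at 79.6, 31.3 and 112 CPM at E12.5 and 11.99, 15.3 and 11.53 CPM at E18.5 (log2 fold change -2.52 ± 0.53, edgeR adjusted p = 0.00624). F13a1, which encodes the clotting factor XIII A chain, was at 348, 227 and 1148 CPM at E12.5 and 67.5, 129.9 and 111 CPM at E18.5 (log2 fold change -2.48 ± 0.58, edgeR adjusted p = 0.0128). E12.5 replicate 3 was the highest library for Cd36 and F13a1, and the summed border and early macrophage list was 4772, 3168 and 8276 CPM at E12.5 and 3196, 3025 and 3289 CPM at E18.5. Without E12.5 replicate 3, F13a1 had a log2 fold change of -1.43 and was not called (edgeR adjusted p = 0.117), nor was it without E18.5 replicate 2 (0.0602). The number of list members called lower was 5 without E12.5 replicate 3, 5 without E18.5 replicate 2 and 5 with the compared groups fitted alone.

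Mean levels in BAM were compared for 4 genes that fell. F13a1 averaged 574 ± 501 CPM in microglia and 6133 ± 946 CPM in BAM at E12.5 (SD, n = 3), and Ms4a4a averaged 216 ± 79.95 CPM and 456 ± 18.48 CPM. Adgre5 and Itgal had the opposite order, with 98.8 ± 27.99 CPM in microglia and 18.48 ± 0.444 CPM in BAM for Adgre5, and 223 ± 44.7 CPM and 27.2 ± 1.09 CPM for Itgal. The genes that fell thus included some that were more abundant in BAM and some that were less abundant there. Mrc1, the mannose receptor CD206 that marks BAM, was at 621, 228 and 1036 CPM at E12.5 and 537, 518 and 601 CPM at E18.5 (log2 fold change -0.19 ± 0.33, edgeR adjusted p = 0.808). Lyve1, a hyaluronan receptor of the same cells, was at 11.6, 3.52 and 56.1 CPM at E12.5 and 8.39, 15.1 and 11.2 CPM at E18.5 (log2 fold change -1.04 ± 0.68, edgeR adjusted p = 0.408). For both the highest and the second highest library differed within E12.5 by more than the 3 E18.5 libraries did among themselves.

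Several fetal growth regulators fell. Of 17 oncofetal and growth genes 7 were lower (3.77% of all genes tested were) and 0 higher, with a median log2 fold change of -1.29. Besides Igf2bp1 and Mest these included Arid3a, a transcription factor of fetal blood cells, at 78.7, 125 and 118 CPM at E12.5 and 43.8, 38.1 and 40.1 CPM at E18.5 (log2 fold change -1.40 ± 0.19, edgeR adjusted p = 3.74e-05). Igf2bp3, a relative of Igf2bp1, was at 124, 123 and 114 CPM at E12.5 and 60.2, 81.5 and 87.5 CPM at E18.5 (log2 fold change -0.65 ± 0.15, edgeR adjusted p = 0.00747). All E18.5 libraries lay below all E12.5 libraries for both. Igf2bp3 was not called without E18.5 replicate 2 (edgeR adjusted p = 0.0602), and the list then held 4 lower genes. Lin28a, an RNA-binding protein that blocks let-7 maturation, had 176 counts over the 3 E12.5 libraries and 0 over those of E18.5, at least 44.3-fold lower when 3 counts are placed in the empty group.

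Of 30 lysosomal genes tested, 17 were higher (4.24% of all genes tested were) and 0 lower, with a median log2 fold change of 0.63. With libraries scaled by totals alone, 16 were higher and 2 lower. Ctsl (chr13:64359337-64370890), the cysteine protease cathepsin L, was at 1103, 877 and 704 CPM at E12.5 and 3039.8, 3289.8 and 3078 CPM at E18.5 (log2 fold change 1.81 ± 0.12, edgeR adjusted p = 1.97e-09). Ctsf, another cathepsin, was at 238, 228 and 195 CPM at E12.5 and 451, 483 and 452 CPM at E18.5 (log2 fold change 1.07 ± 0.12, edgeR adjusted p = 4.11e-06). Lamp2, a glycoprotein of the lysosomal membrane, was at 669, 534 and 512 CPM at E12.5 and 1090.1, 1051 and 1018 CPM at E18.5 (log2 fold change 0.88 ± 0.12, edgeR adjusted p = 3.28e-05). The libraries of the 2 stages did not overlap for these 3 genes. Naglu, which degrades heparan sulfate, was at 162, 135 and 87.9 CPM at E12.5 and 275, 275 and 302 CPM at E18.5. Lgmn, the asparagine protease legumain, was at 4789, 4479 and 4316 CPM at E12.5 and 7153, 8145 and 7702 CPM at E18.5. Grn, the progranulin precursor that is delivered to lysosomes, was at 2790.2, 2307 and 2124 CPM at E12.5 and 4615, 5134 and 4912 CPM at E18.5 (log2 fold change 1.02 ± 0.10, edgeR adjusted p = 9.25e-07). Exons of Ctsl overlap a predicted gene on the opposite strand over 26.8% of their length.

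Lysosomal genes are known to share the letters CACGTG, the core of the element bound by TFEB and its relatives. RefSeq windows of GRCm38.p6 ran from 250 bases before to 50 bases after an annotated start. A gene with several windows counted as holding the letters if any window did. Of the 30 genes, 24 matched a window, and 11 of those (45.8%) held CACGTG, which reads the same on both strands, against 10.8% of 12813 tested genes with a window. Of the 13 matched genes that were higher, 7 held it. Windows of 3 lysosomal genes with these letters are printed 5′ to 3′ on the gene's strand, with the CACGTG in capitals, because they show where the shared letters lie in genes whose level moved in the same direction.
Ctsl, chr13:64370471-64370770, minus strand: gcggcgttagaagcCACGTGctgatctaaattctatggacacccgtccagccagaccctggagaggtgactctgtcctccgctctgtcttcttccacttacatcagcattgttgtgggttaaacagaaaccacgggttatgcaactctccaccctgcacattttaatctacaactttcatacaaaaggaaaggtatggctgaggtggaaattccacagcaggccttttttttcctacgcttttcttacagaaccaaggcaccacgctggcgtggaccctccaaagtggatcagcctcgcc
Naglu, chr11:101069844-101070143, plus strand: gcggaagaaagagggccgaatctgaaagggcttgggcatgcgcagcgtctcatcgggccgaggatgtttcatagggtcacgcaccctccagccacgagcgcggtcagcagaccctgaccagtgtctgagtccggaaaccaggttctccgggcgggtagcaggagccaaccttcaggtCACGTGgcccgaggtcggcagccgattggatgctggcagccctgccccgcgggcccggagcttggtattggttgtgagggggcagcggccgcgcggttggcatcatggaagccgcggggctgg
Lgmn, chr12:102439043-102439342, minus strand: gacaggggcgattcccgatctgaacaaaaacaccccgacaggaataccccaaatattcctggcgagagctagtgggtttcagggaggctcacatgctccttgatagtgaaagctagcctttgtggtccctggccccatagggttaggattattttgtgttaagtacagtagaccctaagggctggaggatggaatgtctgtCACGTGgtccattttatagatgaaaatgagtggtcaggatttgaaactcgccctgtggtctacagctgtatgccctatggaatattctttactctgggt

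The match began at position -236 in Ctsl, -73 in Naglu and -49 in Lgmn relative to the RefSeq start of the printed window. The printed Ctsl window lies inside the span given above for that gene, so its match is downstream of the 5′ end of that span. These matches describe the letters and no binding. In the narrower window of the last 150 bases before the start and the 50 after it, 9 of the 24 genes held CACGTG (37.5%, against 8.47% of all genes).

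Genes for the uptake of dying cells were split, with 6 of 21 higher and 3 lower, beside 4.24% and 3.77% of all genes tested. Mertk, Pros1 and Gas6, the receptor and its 2 bridging ligands, all rose, with Pros1 at 273, 227 and 182 CPM at E12.5 and 487, 435 and 489 CPM at E18.5 (log2 fold change 1.05 ± 0.15, edgeR adjusted p = 9.99e-05). Gas6 was at 758, 501 and 700.0 CPM at E12.5 and 1159, 1131 and 1242 CPM at E18.5 (log2 fold change 0.85 ± 0.14, edgeR adjusted p = 0.000325). Dock2, which drives Rac in migrating leukocytes, rose by 0.63 ± 0.12 on the log2 scale and Lrp1, a scavenger and lipoprotein receptor, by 0.70 ± 0.16. Cd36 was among the lower ones. In the list of lipoprotein and lipid handling, 3 of 19 were higher and 1 lower, among them the sterol transporters Abcg1 (log2 fold change 0.96 ± 0.17, edgeR adjusted p = 0.000927) and Abca1 (log2 fold change 0.90 ± 0.23, edgeR adjusted p = 0.0172), and Abca1 lost its call in 3 of the 6 fits that left out a library (adjusted p up to 0.0860). Apoe, an apolipoprotein that carries lipids between brain cells, was at 15880.0, 15987 and 23447 CPM at E12.5 and 14369, 19725 and 16438 CPM at E18.5 (log2 fold change -0.13 ± 0.18, edgeR adjusted p = 0.748).

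**Figure D3:**
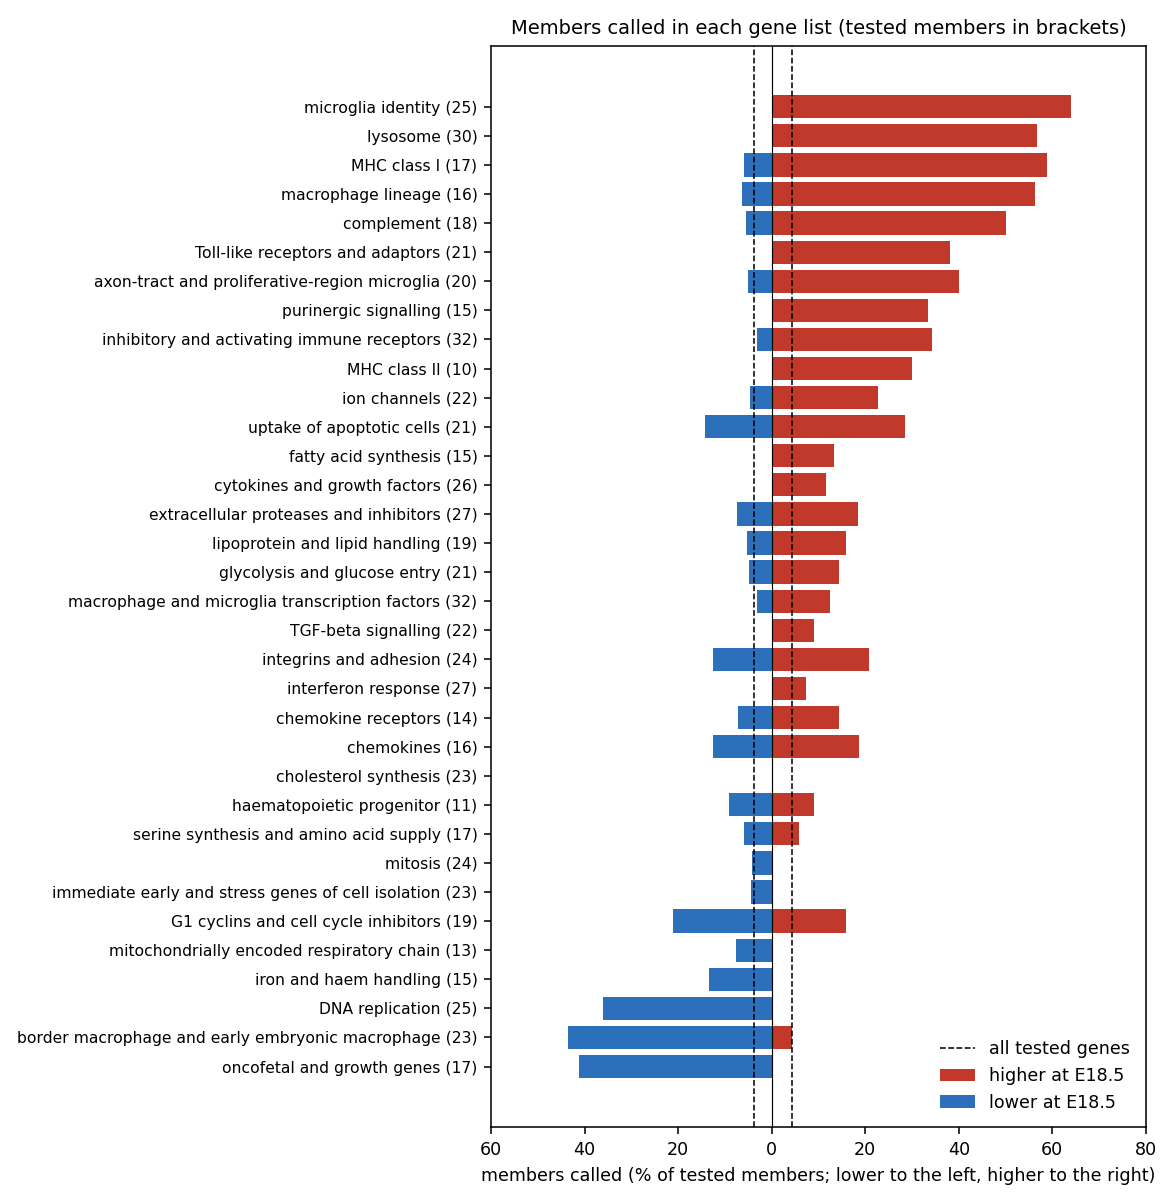
Share of the tested members of each function list (lists of other cell types are not drawn) that were called higher (red, to the right) and lower (blue, to the left) at E18.5, with the number of tested members in brackets and dashed lines at the shares of all tested genes (4.24% and 3.77%). Among the lists drawn, the bars reach furthest to the right for microglia identity, MHC class I and lysosome and furthest to the left for border and early macrophage, oncofetal and DNA replication.

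Of 18 complement genes 9 were higher and 1 lower, beside 4.24% and 3.77% of all genes tested. When all 39 libraries were fitted with the E18.5 libraries of R10 as their own groups, 4 were higher. C1qa, a chain of the C1q complex that tags synapses, was at 1381, 1255 and 1486 CPM at E12.5 and 2180.1, 2734 and 2146 CPM at E18.5 (log2 fold change 0.78 ± 0.13, edgeR adjusted p = 0.000657). It was not called with all 39 libraries, whether R10 formed its own groups (edgeR adjusted p = 0.1053) or was pooled into E18.5 (0.1259). C4b had 0 counts over the 3 E12.5 libraries and 288 over those of E18.5, at least 127-fold higher with 3 counts placed in the E12.5 group, and it cannot be told from its near-identical copy C4a where reads fit both. Of 21 Toll-like receptor genes and adaptors 8 were higher and 0 lower, and 5 were higher and 1 lower without E18.5 replicate 3. Tlr6 was at 37.6, 31.9 and 28.2 CPM at E12.5 and 80.8, 83.4 and 97.4 CPM at E18.5 (log2 fold change 1.42 ± 0.16, edgeR adjusted p = 4.59e-06). Tlr7, the endosomal sensor of single-stranded RNA, was at 126, 87.4 and 94.2 CPM at E12.5 and 217, 188 and 216 CPM at E18.5 (log2 fold change 1.01 ± 0.15, edgeR adjusted p = 8.92e-05). Cd14, the co-receptor for lipopolysaccharide, was at 36.2, 63.4 and 87.6 CPM at E12.5 and 115, 217 and 133 CPM at E18.5 (log2 fold change 1.31 ± 0.25, edgeR adjusted p = 0.00179).

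MHC class I genes were higher in 10 of 17 cases and lower in 1, beside 4.24% and 3.77% of all genes tested. The lower one was Psmb10, a subunit of the immunoproteasome (log2 fold change -0.54 ± 0.16, edgeR adjusted p = 0.0448). H2-K1, a class I heavy chain, was at 220.4, 239 and 300.1 CPM at E12.5 and 459.8, 1089.8 and 670.4 CPM at E18.5 (log2 fold change 1.55 ± 0.20, edgeR adjusted p = 3.36e-05). Nlrc5, the transactivator of class I genes, was at 2.58, 3.61 and 1.82 CPM at E12.5 and 8.87, 21.2 and 24.6 CPM at E18.5 (log2 fold change 2.77 ± 0.43, edgeR adjusted p = 0.000219). Nlrc5 was not called with all 39 libraries, whether R10 formed its own groups (edgeR adjusted p = 0.105) or was pooled into E18.5 (0.05688). Tap1, a peptide transporter, was at 60.6, 61.95 and 43.9 CPM at E12.5 and 92.3, 127 and 131 CPM at E18.5 (log2 fold change 1.07 ± 0.17, edgeR adjusted p = 0.000189). E18.5 replicates 3 and 4 lay above replicate 2 for all 3 genes. The class I heavy chains are near-identical copies, so reads may be split among them. E18.5 replicate 3 also had the highest sum of monocyte markers, with 60.9, 398 and 63.0 CPM at E18.5 and 84.9, 245 and 266 CPM at E12.5, and the part of such cells in these values was not tested. Without that library 8 class I genes were still called higher.

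MHC class II genes were at low levels, and 3 of 10 were higher. Cd74, the invariant chain, was at 7.85, 21.4 and 14.6 CPM at E12.5 and 32.4, 48.6 and 35.9 CPM at E18.5 (log2 fold change 1.41 ± 0.33, edgeR adjusted p = 0.00959) and was not called without E18.5 replicate 3 (edgeR adjusted p = 0.0529). H2-DMb1, a chaperone of peptide loading, was at 17.7, 20.6 and 17.3 CPM at E12.5 and 37.5, 51.5 and 42.6 CPM at E18.5 (log2 fold change 1.24 ± 0.21, edgeR adjusted p = 0.000545). In the interferon response list 2 of 27 genes were higher (7.41%, beside 4.24% of all genes), Rsad2, an antiviral enzyme, (log2 fold change 1.84 ± 0.41, edgeR adjusted p = 0.00667) and Usp18, which removes ISG15, (log2 fold change 0.99 ± 0.29, edgeR adjusted p = 0.0338). Rsad2 was not called without E18.5 replicate 3 (edgeR adjusted p = 0.0504), and Usp18 lost its call in 5 of the 6 fits that left out a library.

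Cytokine and chemokine genes moved singly, where 4.24% of all genes tested were higher and 3.77% lower. Of 26 cytokines and growth factors 3 were higher, namely Osm, Grn and Csf1, a ligand of the CSF1 receptor, at 87.9, 82.8 and 72.8 CPM at E12.5 and 242, 333 and 261 CPM at E18.5 (log2 fold change 1.78 ± 0.33, edgeR adjusted p = 0.00145). Of 16 chemokines 3 were higher and 2 lower. Ccl6 was at 63.2, 40.1 and 53.5 CPM at E12.5 and 176, 173 and 148 CPM at E18.5 (log2 fold change 1.66 ± 0.21, edgeR adjusted p = 2.24e-05). Ccl9 was at 113, 98.3 and 110.5 CPM at E12.5 and 253, 277 and 207 CPM at E18.5 (log2 fold change 1.19 ± 0.16, edgeR adjusted p = 3.07e-05), both CC chemokines of myeloid cells. Ccl7, which attracts monocytes, was at 16.3, 13.7 and 31.9 CPM at E12.5 and 4.97, 7.22 and 5.74 CPM at E18.5 (log2 fold change -1.78 ± 0.31, edgeR adjusted p = 0.000586). Stages did not overlap for these 4 genes. Ccl5 was listed at 0, 0.475 and 0.0828 CPM at E12.5 and 0.0975, 15.8 and 7.49 CPM at E18.5, so its groups overlapped, and it lost its call in 4 of the 6 fits that left out a library. Of 14 chemokine receptors 2 were higher, Cx3cr1 among them, and 1 was lower, Ccr1.

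Genes reported for microglia of developing axon tracts and proliferative regions were higher in 8 of 20 cases (4.24% of all genes tested) and lower in 1 (3.77%), Lgals1. Beside Spp1, Gpnmb and Csf1, Cd9, a tetraspanin, was at 346, 268 and 233 CPM at E12.5 and 684, 758 and 691 CPM at E18.5 (log2 fold change 1.33 ± 0.20, edgeR adjusted p = 0.000159). Slc23a2, a vitamin C transporter, was at 132, 95.8 and 71.8 CPM at E12.5 and 303, 240.2 and 278 CPM at E18.5 (log2 fold change 1.46 ± 0.23, edgeR adjusted p = 0.000249). Lpl, the lipoprotein lipase often named with this state, was at 544, 398 and 364 CPM at E12.5 and 517, 514 and 557 CPM at E18.5 (log2 fold change 0.28 ± 0.14, edgeR adjusted p = 0.226), and its groups overlapped. Igf1 was at 82.8, 37.6 and 123 CPM at E12.5 and 150.2, 144 and 152 CPM at E18.5 (log2 fold change 0.88 ± 0.29, edgeR adjusted p = 0.0673). It was not called, and its groups did not overlap, as held for 5482 of the 20450 genes tested.

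Receptors and channels of the cell surface mostly rose where they were called, beside 4.24% of all genes tested higher and 3.77% lower. Of 32 inhibitory and activating immune receptors 11 were higher and 1 lower. Fcgr2b, the inhibitory Fc receptor, was at 38.5, 30.8 and 61.4 CPM at E12.5 and 154, 172 and 159 CPM at E18.5 (log2 fold change 1.89 ± 0.18, edgeR adjusted p = 4.29e-07). Sirpa, the receptor for the do-not-eat-me signal CD47, was at 1612, 1765 and 1592 CPM at E12.5 and 3246, 3092 and 3137 CPM at E18.5 (log2 fold change 0.93 ± 0.13, edgeR adjusted p = 7.10e-05). Trem2, a lipid-sensing receptor, was at 641, 676 and 675 CPM at E12.5 and 975, 1086 and 1042 CPM at E18.5 (log2 fold change 0.64 ± 0.11, edgeR adjusted p = 0.000889). Trem2 was not called with all 39 libraries, whether R10 formed its own groups (edgeR adjusted p = 0.05954) or was pooled into E18.5 (0.09199). Clec12a, an inhibitory lectin, was the lower one, at 29.7, 42.7 and 31.6 CPM at E12.5 and 5.85, 11.3 and 10.8 CPM at E18.5 (log2 fold change -1.89 ± 0.29, edgeR adjusted p = 0.000159). In the purinergic signalling list 5 of 15 were higher and 0 lower: beside P2ry12 and P2ry13 these were the ectonucleotidase Entpd1 (log2 fold change 0.82 ± 0.11, edgeR adjusted p = 4.66e-05), the ATP-gated channel P2rx7 (log2 fold change 1.11 ± 0.16, edgeR adjusted p = 7.10e-05) and Adora3, an adenosine receptor. Of 22 ion channels 5 were higher and 1 lower, with the proton channel Hvcn1 (log2 fold change 1.17 ± 0.19, edgeR adjusted p = 0.00043) and the potassium channel Kcnk13, known as THIK-1, (log2 fold change 1.19 ± 0.23, edgeR adjusted p = 0.00143) among the higher ones. The lower one was Clic4, a chloride intracellular channel protein (log2 fold change -0.68 ± 0.12, edgeR adjusted p = 0.000778). Exons of Hvcn1 overlap those of Tctn1 on the opposite strand over 44.2% of their length.

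Adhesion genes divided, with 5 of 24 higher and 3 lower, beside 4.24% and 3.77% of all genes tested. Itgb2, the beta chain shared by leukocyte integrins, was at 207, 214 and 177 CPM at E12.5 and 303, 389 and 376 CPM at E18.5 (log2 fold change 0.84 ± 0.14, edgeR adjusted p = 0.000354), while its partner chain Itgal fell. Cd44, a hyaluronan receptor, was at 83.8, 88.7 and 103 CPM at E12.5 and 44.4, 40.8 and 47.4 CPM at E18.5 (log2 fold change -1.06 ± 0.15, edgeR adjusted p = 9.79e-05). Itga4, the alpha chain of VLA-4, was at 41.2, 56.4 and 45.96 CPM at E12.5 and 20.9, 17.6 and 27.8 CPM at E18.5 (log2 fold change -1.11 ± 0.21, edgeR adjusted p = 0.00152). In both the E18.5 libraries lay below all of E12.5. Of 27 extracellular proteases and inhibitors 5 were higher and 2 lower. Cst3, the secreted cathepsin inhibitor cystatin C, was at 788, 742 and 825 CPM at E12.5 and 1498, 1890.0 and 1278 CPM at E18.5 (log2 fold change 0.99 ± 0.13, edgeR adjusted p = 3.96e-05). Adam17, which sheds membrane ligands such as TGF-alpha, was at 326, 261 and 217 CPM at E12.5 and 425, 386 and 418 CPM at E18.5 (log2 fold change 0.61 ± 0.13, edgeR adjusted p = 0.00519). Ecm1 and Serpinb6a, the lower ones, lost their calls without E12.5 replicate 3 (edgeR adjusted p = 0.0916 and 0.0524).

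Of 32 transcription factors of macrophages and microglia, 4 were higher and 1 lower, beside 4.24% and 3.77% of all genes tested. Etv5, an ETS factor, was at 157, 116 and 115 CPM at E12.5 and 304, 287 and 273 CPM at E18.5 (log2 fold change 1.15 ± 0.14, edgeR adjusted p = 9.78e-06). Tfec, a relative of TFEB, was the lower one, at 47.05, 50.1 and 70.7 CPM at E12.5 and 27.9, 21.1 and 21.1 CPM at E18.5 (log2 fold change -1.26 ± 0.18, edgeR adjusted p = 6.54e-05). Mef2a was at 228, 217 and 153 CPM at E12.5 and 341, 335 and 325 CPM at E18.5 (log2 fold change 0.74 ± 0.19, edgeR adjusted p = 0.0163) and lost its call without E12.5 replicate 3 or without E18.5 replicate 2 (edgeR adjusted p = 0.0834 and 0.0547). Of 22 genes of TGF-beta signalling 2 were higher (9.09%, beside 4.24% of all genes tested). These were the receptor Tgfbr2 (log2 fold change 0.66 ± 0.14, edgeR adjusted p = 0.00338) and the list member Id2 (log2 fold change 1.80 ± 0.40, edgeR adjusted p = 0.00843). Id2 was at 46.7, 42.4 and 99.6 CPM at E12.5 and 165, 388 and 107 CPM at E18.5, with replicate 3 far above the other E18.5 libraries, and was not called without it (edgeR adjusted p = 0.0541). The other receptor chain, Tgfbr1, was at 937, 1054 and 527 CPM at E12.5 and 1026, 888 and 929 CPM at E18.5 (log2 fold change 0.17 ± 0.34, edgeR adjusted p = 0.829).

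The share of members called in these metabolic lists ran from 0% for cholesterol synthesis to 19% for glycolysis. Over all genes tested 4.24% were higher and 3.77% lower. Of 23 genes of cholesterol synthesis 0 were called in edgeR and 0 in DESeq2, with an edgeR unadjusted p under 0.05 for 4 of them, and 2 were called with the R10 libraries pooled into E18.5. Of 17 genes of serine synthesis and amino acid supply 1 was higher and 1 lower, Asns, the asparagine synthetase, at 19.1, 19.6 and 23.4 CPM at E12.5 and 10.6, 5.97 and 9.99 CPM at E18.5 (log2 fold change -1.23 ± 0.24, edgeR adjusted p = 0.00225). Aldoc, an aldolase otherwise known from astrocytes, led the 3 higher of 21 glycolysis genes, at 2.52, 3.90 and 1.16 CPM at E12.5 and 26.5, 19.5 and 34.4 CPM at E18.5 (log2 fold change 3.42 ± 0.48, edgeR adjusted p = 8.18e-05). A further glycolysis gene, 1 of the 21, was lower, namely Slc2a3, a glucose transporter. Pfkl, among the higher ones, and Slc2a3 each lost their call in 4 of the 6 fits that left out a library. Of 15 genes of iron and haem handling 2 were lower, with the transferrin receptor Tfrc at 61.01, 48.8 and 41.98 CPM at E12.5 and 13.6, 13.3 and 15.3 CPM at E18.5 (log2 fold change -1.85 ± 0.27, edgeR adjusted p = 9.99e-05). Slc11a1, the other one, lost its call in all 6 fits that left out a library.

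Most mitosis genes fell in BAM, while in microglia the share called lower was near that of all genes. Of 24 mitosis genes 0 were higher and 1 lower in microglia (4.17%, beside 3.77% of all genes tested), with a median log2 fold change of -0.17. In BAM 23 were lower with a median of -1.03, where 6.55% of all genes tested were lower. Mki67, the proliferation marker Ki-67, was at 368, 382 and 345 CPM at E12.5 and 289.5, 315 and 348 CPM at E18.5 (log2 fold change -0.20 ± 0.18, edgeR adjusted p = 0.569), and its groups overlapped. Top2a, the topoisomerase that untangles chromosomes, was at 348, 281 and 282 CPM at E12.5 and 295, 309 and 351 CPM at E18.5 (log2 fold change 0.07 ± 0.12, edgeR adjusted p = 0.797). Ccnb1, the cyclin that starts mitosis, was at 193, 169.5 and 195 CPM at E12.5 and 164, 172 and 154 CPM at E18.5 (log2 fold change -0.19 ± 0.13, edgeR adjusted p = 0.446). The single lower member was Birc5, a part of the chromosomal passenger complex (log2 fold change -0.57 ± 0.17, edgeR adjusted p = 0.035), which lost its call in 4 of the 6 fits that left out a library (adjusted p up to 0.292). Under scaling by library totals alone 4 mitosis genes were lower. Of 25 DNA replication genes 9 were lower in microglia (36%, beside 3.77% of all genes tested) and 0 higher, with a median of -0.37. In BAM 24 were lower, with a median of -1.30. Mcm5 (chr8:75109569-75128439), a subunit of the replicative helicase, was at 284, 303 and 287 CPM at E12.5 and 194, 186 and 187 CPM at E18.5 (log2 fold change -0.62 ± 0.11, edgeR adjusted p = 0.00104). Cdc6, which loads that helicase, was at 43.03, 46.02 and 47.6 CPM at E12.5 and 30.7, 20.1 and 21.2 CPM at E18.5 (log2 fold change -0.93 ± 0.18, edgeR adjusted p = 0.00184). The number of DNA replication genes called lower was 4 without E12.5 replicate 3, 6 without E18.5 replicate 2, 6 with the compared groups alone, 5 with the R10 libraries pooled into E18.5 and 16 under scaling by library totals alone.

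The difference between the populations was tested directly, as the change in microglia minus the change in BAM. It was called for 12 of the 24 mitosis genes and 11 of the 25 DNA replication genes (2.24% of all genes tested were called for the difference), each with the smaller fall, or no fall, in microglia. The log2 changes of Ccnb1 were -0.19 in microglia and -1.56 in BAM (difference 1.37 ± 0.19, edgeR adjusted p = 0.000142), those of Top2a 0.07 in microglia and -0.89 in BAM (difference 0.96 ± 0.17, edgeR adjusted p = 0.0018), and those of Plk1, a mitotic kinase, -0.15 in microglia and -1.32 in BAM (difference 1.17 ± 0.24, edgeR adjusted p = 0.00838). Those of Mcm5 were -0.62 in microglia and -1.65 in BAM (difference 1.03 ± 0.16, edgeR adjusted p = 0.000655). Leaving out 1 microglia library gave 10 to 13 mitosis and 9 to 13 DNA replication genes. With libraries of adjacent numbers, 1 of each population, as a block, 1 mitosis gene and 1 DNA replication gene were called, and Mcm5 had a difference of 0.82 (edgeR adjusted p = 0.0971). That fit took only microglia libraries with a single such neighbour, which left 7 pairs, 1 of them of E12.5 and 3 of E18.5. In settings chosen after seeing the data, the same 14 libraries without the block gave 1 mitosis gene and 0 DNA replication genes, and a block of all 11 adjacent pairs gave 15 and 12, with a difference of 1.02 for Mcm5 (edgeR adjusted p = 0.000355). The labels do not say that adjacent numbers share an embryo or a day.

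Among G1 regulators 3 of 19 were higher and 4 lower in microglia, beside 4.24% and 3.77% of all genes tested. Cdk4, the kinase of the G1 phase, was at 409, 445 and 418 CPM at E12.5 and 279.5, 293 and 307 CPM at E18.5 (log2 fold change -0.53 ± 0.10, edgeR adjusted p = 0.000862). Cdkn1a, the inhibitor p21, was at 31.9, 31.998 and 60.2 CPM at E12.5 and 79.9, 126 and 71.2 CPM at E18.5 (log2 fold change 1.16 ± 0.25, edgeR adjusted p = 0.0054). Rbl1, the pocket protein p107, was at 40.6, 47.1 and 41.6 CPM at E12.5 and 68.3, 70.5 and 75.8 CPM at E18.5 (log2 fold change 0.73 ± 0.16, edgeR adjusted p = 0.00432). Cdkn1c, the imprinted inhibitor p57, was at 7.13, 13.4 and 38.1 CPM at E12.5 and 1.95, 2.15 and 2.71 CPM at E18.5 (log2 fold change -3.09 ± 0.65, edgeR adjusted p = 0.00429), with E12.5 replicate 3 highest and a log2 fold change of -2.11 without it. Exons of Cdk4 and Cdkn1c overlap a gene on the opposite strand over 19.7% and 30.7% of their length.

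Genes of mitosis and of DNA replication are known to carry short shared elements near their starts. In the same RefSeq windows the letters TTTGAA of the cell cycle homology region (CHR) were found on either strand in 15 of 20 matched mitosis genes (75.0%), against 15% of all genes. The letters CCAAT were found in 18 of the 20 (90.0%, against 42.1%). The E2F letters TTTCCCGC and TTTGGCGC were each found in 5 of 20 matched DNA replication genes (25.0%), against 2.13% and 0.983% of all genes. Windows of 2 mitosis genes with TTTGAA in capitals and of 2 DNA replication genes with an E2F match in capitals are printed, the first pair because the difference between the populations was called for both and the second because both fell in microglia. A match on the other strand reads TTCAAA, GCGGGAAA or GCGCCAAA.
Plk1, chr7:122159185-122159484, plus strand: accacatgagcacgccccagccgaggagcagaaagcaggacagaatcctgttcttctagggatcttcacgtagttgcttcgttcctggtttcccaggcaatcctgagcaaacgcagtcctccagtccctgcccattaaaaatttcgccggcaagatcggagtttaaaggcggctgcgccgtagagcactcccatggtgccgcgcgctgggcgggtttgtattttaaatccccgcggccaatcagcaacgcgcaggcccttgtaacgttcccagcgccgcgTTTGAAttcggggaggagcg
Top2a, chr11:99024140-99024439, minus strand: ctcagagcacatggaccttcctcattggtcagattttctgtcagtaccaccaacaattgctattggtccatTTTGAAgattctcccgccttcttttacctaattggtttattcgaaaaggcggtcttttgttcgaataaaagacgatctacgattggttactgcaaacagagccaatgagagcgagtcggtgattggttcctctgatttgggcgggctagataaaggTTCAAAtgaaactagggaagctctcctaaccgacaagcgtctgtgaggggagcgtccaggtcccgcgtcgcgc
Cdc6, chr11:98907901-98908200, plus strand: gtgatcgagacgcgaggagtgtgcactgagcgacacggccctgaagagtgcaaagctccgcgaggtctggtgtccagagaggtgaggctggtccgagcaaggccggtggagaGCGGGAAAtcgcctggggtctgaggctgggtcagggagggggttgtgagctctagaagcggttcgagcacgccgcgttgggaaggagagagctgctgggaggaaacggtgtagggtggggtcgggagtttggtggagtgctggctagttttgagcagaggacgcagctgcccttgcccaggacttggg
Mcm5, chr8:75109259-75109558, plus strand: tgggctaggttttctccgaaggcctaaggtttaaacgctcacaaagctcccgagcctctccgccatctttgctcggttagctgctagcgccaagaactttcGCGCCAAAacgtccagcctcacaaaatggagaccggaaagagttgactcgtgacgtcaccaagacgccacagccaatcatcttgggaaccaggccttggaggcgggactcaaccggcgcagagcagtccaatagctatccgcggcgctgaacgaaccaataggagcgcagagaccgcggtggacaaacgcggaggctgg

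The match lay at position 31 in Plk1, -179 and -23 in Top2a, -138 in Cdc6 and -149 in Mcm5. Cdc6 thus shows TTTCCCGC and Mcm5 TTTGGCGC as their reverse complements. Of the 7 matched DNA replication genes that were lower in microglia, 2 held the first form and 2 the second. Other letters were searched too. The PU.1 site GAGGAAGT was in 0 of 14 matched microglia identity genes (3.67% of all genes). The sterol element was in 1 of 16 cholesterol synthesis genes (6.25%, against 1.46%) and the SMAD palindrome in 1 of 15 TGF-beta signalling genes (6.67%, against 0.289%). The core of the interferon element was in 11 of 18 interferon response genes (61.1%, against 3.82%).

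**Figure D4:**
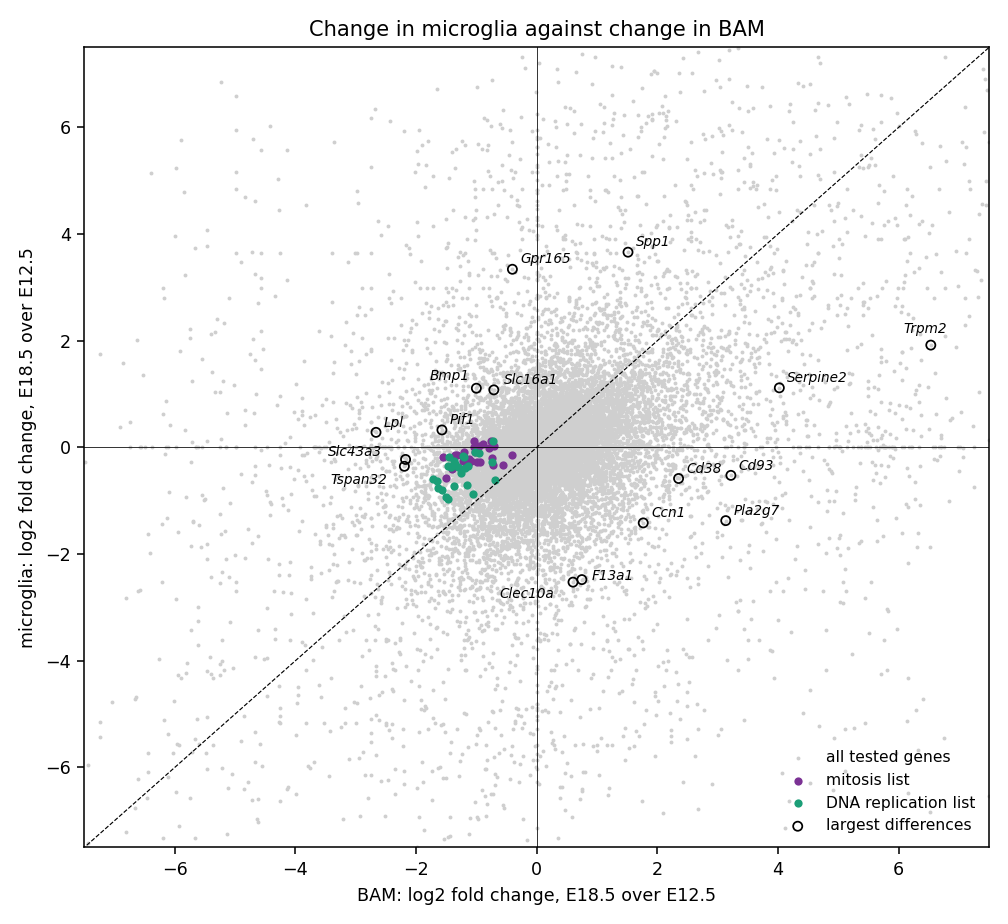
Log2 fold change from E12.5 to E18.5 in microglia (vertical axis) against that in BAM (horizontal axis) for all tested genes within 7.5 either way (104 lie outside), with the mitosis list in purple, the DNA replication list in green and the largest called differences as labelled open circles. All 24 mitosis and 25 DNA replication genes sit above the dashed line of equal change, with BAM medians of -1.03 and -1.30 beside microglia medians of -0.17 and -0.37.

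Over all genes the difference was called for 458, with 227 in favour of microglia and 231 in favour of BAM. BAM themselves had 2715 calls (1375 higher and 1340 lower). In both populations 776 genes were called in the same direction and 37 in opposite directions. With the block of 7 adjacent pairs the difference was called for 183 genes, 39 and 144, and the same 14 libraries without the block gave 121, 24 and 97. With the block of all 11 adjacent pairs, chosen after seeing the data, it was called for 826, 406 and 420. Gpr165 had log2 changes of 3.34 in microglia and -0.40 in BAM (difference 3.74 ± 0.50, edgeR adjusted p = 0.000116), and Spp1 of 3.66 in microglia and 1.51 in BAM (difference 2.15 ± 0.37, edgeR adjusted p = 0.00198). Lpl had changes of 0.28 in microglia and -2.67 in BAM (difference 2.95 ± 0.20, edgeR adjusted p = 4.19e-09): it averaged 435 ± 95.7 CPM and 529 ± 24.4 CPM in microglia and 505 ± 78.1 CPM and 79.7 ± 3.78 CPM in BAM. Slc16a1, a lactate transporter, had changes of 1.08 in microglia and -0.71 in BAM (difference 1.79 ± 0.22, edgeR adjusted p = 4.62e-05). The microglia libraries of the 2 stages overlapped for Lpl.

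The opposite pattern was seen in Pla2g7, a phospholipase of platelet-activating factor, with 113 ± 26.6 CPM and 43.3 ± 7.71 CPM in microglia and 13.4 ± 0.785 CPM and 117 ± 13.54 CPM in BAM (difference -4.51 ± 0.33, edgeR adjusted p = 1.93e-08). Its order between the populations was therefore reversed between the stages. Trpm2, a calcium channel gated by oxidative stress, rose in both, by 1.92 in microglia and 6.53 in BAM on the log2 scale (difference -4.62 ± 0.56, edgeR adjusted p = 6.48e-05). Among border and early macrophage genes the difference was called for 6 of 23 (2.24% of all genes tested), all lower in microglia relative to BAM. They included Tgfbi, a matrix protein, at -0.67 in microglia and 1.36 in BAM (difference -2.03 ± 0.17, edgeR adjusted p = 2.21e-07) and Ccr1 at -1.54 in microglia and -0.23 in BAM (difference -1.31 ± 0.14, edgeR adjusted p = 6.54e-06). For the microglia identity list 3 of 25 were called in favour of microglia, Fcrls and Siglech among them, and 2 in favour of BAM. In BAM 17 of those 25 genes were higher at E18.5 (6.72% of all genes were), with a median of 1.15, beside 16 and 1.12 in microglia.

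The stages between were sampled in the same series, with 2 microglia libraries at E14.5 and 3 at E16.5. Of the genes called higher, 522 (60.2%) rose at each step in their means, as against 13.2% of all genes with a steady course in either direction, and 300 of the lower ones (38.96%) fell at each step. The median share of the change reached by E14.5 was 31.6% for higher and 40.8% for lower genes, and by E16.5 72.0% and 82.1%. Igf2bp1 averaged 172, 69.5, 18.3 and 10.4 CPM over the 4 stages, and Spp1 188, 611, 1073 and 2374 CPM. Most of the fall of Igf2bp1 was thus in place by E16.5, whereas Spp1 rose further after it, in its mean. Mcm5 was lowest at E16.5, with 157 CPM against 291 at E12.5 and 189 at E18.5. These shares use the same E12.5 and E18.5 libraries that chose the genes and are a description.

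**Figure D5:**
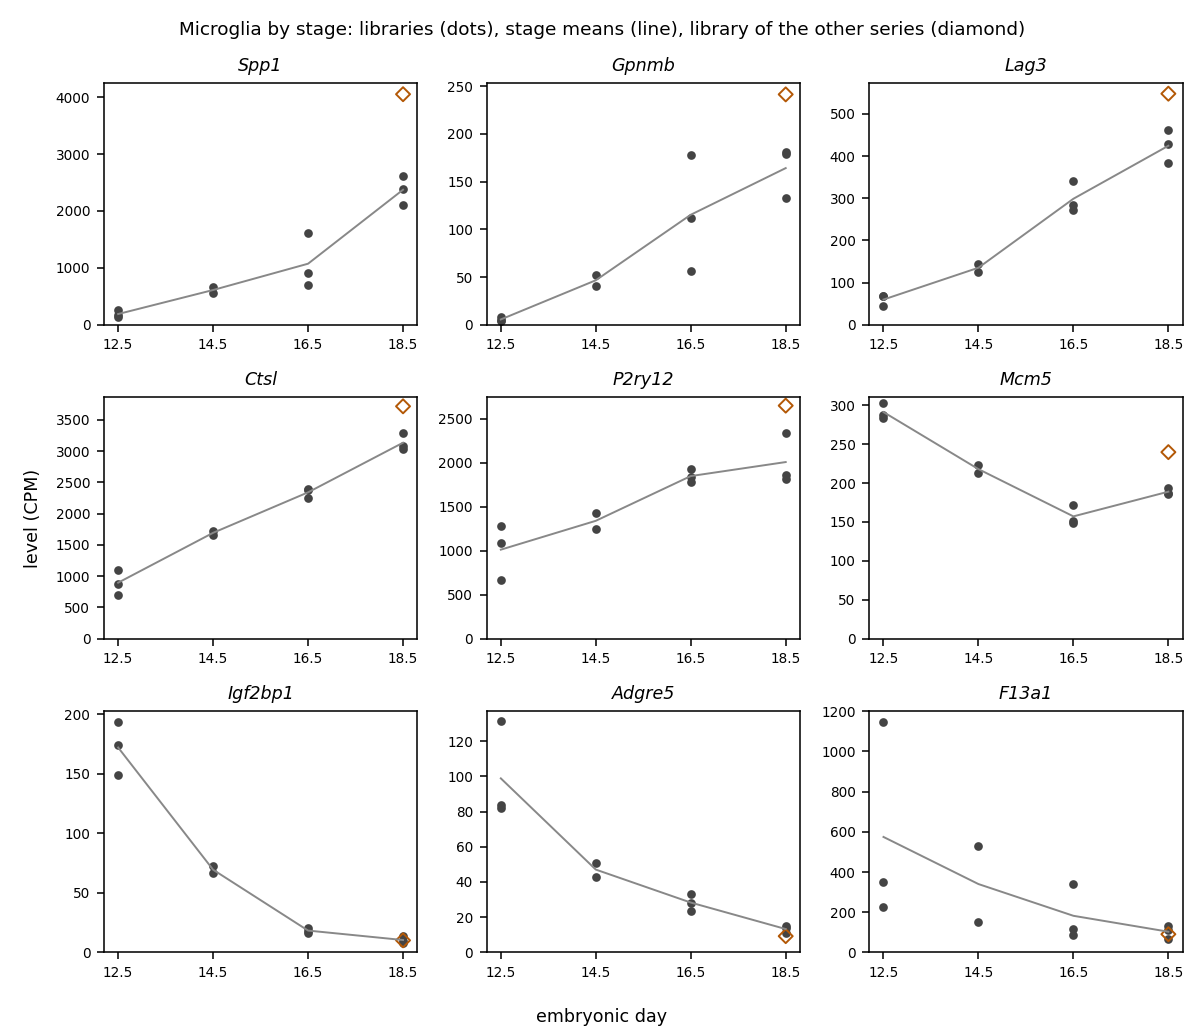
Level in CPM of 9 microglia genes by embryonic day, with 1 dot per library of series R8, a line through the stage means and an open diamond for the E18.5 library of series R10. Spp1, Gpnmb, Lag3, Ctsl and P2ry12 climb, Igf2bp1, Adgre5 and F13a1 fall, and Mcm5 is lowest at E16.5 (157 CPM).

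The E18.5 microglia library of series R10, which took no part in the calls, lay above all 3 E12.5 libraries for 812 of the 867 higher genes and below all of them for 707 of the 770 lower genes. Over all tested genes it lay above them for 28.01% and below them for 31.97%. The same 3 E12.5 libraries were used to choose the called genes, so the counts describe the library and are no independent check of the calls. Spp1 was at 4054 CPM in that library, Gpnmb at 241 CPM, Igf2bp1 at 10.1 CPM and Adgre5 at 9.23 CPM. The R10 library differs from E12.5 in both stage and series, which cannot be told apart in it. Mcm5 was at 239.9 CPM, above the 3 E18.5 libraries and below the 3 of E12.5.

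Some marker genes of other cell types also moved between the stages. Of 13 erythroid genes 6 were lower and 1 higher, beside 3.77% and 4.24% of all genes tested. Hbb-y, the embryonic epsilon-like globin, was at 325, 444 and 339 CPM at E12.5 and 0.780, 0.139 and 0.106 CPM at E18.5 (log2 fold change -10.32 ± 0.80, edgeR adjusted p = 2.69e-07). Hbb-bh1, an embryonic beta-like globin, had 1614 counts over the E12.5 libraries and 0 over those of E18.5, at least 406-fold lower with 3 counts placed in the empty group. Hba-x, the embryonic alpha-like globin, had 4532 and 2 counts, a ratio of 1710 with a 95% counting interval from 473 to 14130. The adult globin gene Hbb-bs was the higher one (log2 fold change 2.12 ± 0.50, edgeR adjusted p = 0.0131). Globin genes are close copies, so reads may be shared between them. Among neural markers, Tubb3, a neuronal tubulin, was at 210.4, 163 and 137 CPM at E12.5 and 70.1, 45.7 and 59.5 CPM at E18.5 (log2 fold change -1.54 ± 0.39, edgeR adjusted p = 0.0194) and lost its call in 3 of the 6 fits that left out a library.

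Glial genes moved in both directions. Nes and Vim, filament genes of neural stem cells and radial glia, were lower, at 228, 309 and 243 CPM at E12.5 and 112, 88.8 and 102 CPM at E18.5 (log2 fold change -1.36 ± 0.25, edgeR adjusted p = 0.00104) for Nes and 134, 224 and 138 CPM at E12.5 and 70.3, 44.7 and 61.6 CPM at E18.5 (log2 fold change -1.49 ± 0.22, edgeR adjusted p = 0.000103) for Vim. Fabp7, a lipid carrier of radial glia and astrocytes, was at 8.03, 2.09 and 6.29 CPM at E12.5 and 34.3, 22.3 and 33.2 CPM at E18.5 (log2 fold change 2.46 ± 0.44, edgeR adjusted p = 0.000999). Olig1, a factor of the oligodendrocyte lineage, was at 0.360, 0.285 and 0.662 CPM at E12.5 and 7.997, 6.52 and 11.8 CPM at E18.5 (log2 fold change 4.29 ± 0.54, edgeR adjusted p = 3.36e-05). Of the 15 genes 6 were higher and 3 lower, and Slc1a3 is one of the 6. Choroid plexus, mural and vascular markers were at low levels, with Ttr, the transthyretin of the choroid plexus, at 5.09, 0.856 and 1.82 CPM at E12.5 and 25.2, 22.2 and 26.9 CPM at E18.5. Rgs5, a pericyte gene, was at 6.11, 1.997 and 11.51 CPM at E12.5 and 44.8, 38.3 and 36.4 CPM at E18.5. Slco1c1, a transporter of brain endothelium, was at 0.300, 0.475 and 0.580 CPM at E12.5 and 6.34, 8.47 and 7.49 CPM at E18.5. Mpo, the granulocyte peroxidase, had 1144 counts at E12.5, at 0, 49.1 and 4.64 CPM in the 3 libraries, and 0 at E18.5, and was not called (edgeR adjusted p = 0.0597). For the remaining lists the shares over all genes tested were 4.24% higher and 3.77% lower, and no list was tested as a set. There, 1 of 11 haematopoietic progenitor genes was higher and 1 lower, as were 1 of 10 monocyte genes in each direction. Of 4 lymphoid genes 1 was higher and 2 lower, of 12 endothelial genes 2 were higher, of 12 mesenchymal and mural genes 2 were higher and 1 lower, of 8 choroid plexus genes 1 was higher and 1 lower, and of 15 fatty acid synthesis genes 2 were higher. The part of RNA from other cells in the changes of genes that microglia share with them, such as Slc1a3 and Aldoc, was not tested.

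Of 23 immediate early and stress genes known to be induced by cell isolation 0 were higher and 1 lower (4.35%, beside 3.77% of all genes tested). The list median log2 fold change was 0.31, beside -0.035 over all genes, and an edgeR unadjusted p was under 0.05 for 9 members, in either direction. The lower gene was Egr3, at 17.8, 62.9 and 51.8 CPM at E12.5 and 1.76, 6.66 and 2.44 CPM at E18.5 (log2 fold change -3.60 ± 1.08, edgeR adjusted p = 0.0467). Egr3 lost its call in 5 of the 6 fits that left out a library. Of the 13 respiratory chain genes encoded in mitochondria 1 was lower (7.69%, beside 3.77% of all genes tested). It was mt-Nd5 (log2 fold change -0.49 ± 0.15, edgeR adjusted p = 0.0498), which lost its call in 5 of those 6 fits. The mitochondrial share of counts ran from 2.08% to 3.83% over the 6 libraries.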

How the data were processed

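RNA of sorted mouse microglia and BAM was sequenced from small amounts with a modified SMART-seq2 protocol and Nextera XT libraries on an Illumina HiSeq, per the labels' protocols. The authors deposited 1 table of whole-number counts per gene for 39 libraries, made with STAR, featureCounts and GRCm38 per the submitters' processing notes. The versions, the annotation release, the use of strand and whether both reads of a pair were counted are not given in the sources used here. A gene count of 2 occurred 8485 times in these 6 libraries and a count of 1 occurred 3719 times, so counts divided by 2 were tried as an alternative.

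Genes passing edgeR's filterByExpr (20450 of 53379, with 99.95% of counts) were fitted in edgeR 4.0.16 (R 4.3.3) with TMM factors and the robust quasi-likelihood test. The fit held the 23 R8 libraries in 8 groups, which share 1 estimate of spread, and p-values were Benjamini-Hochberg adjusted over all tested genes at 0.05. The standard error is the log2 fold change divided by the square root of F. Reported folds against a group with 0 counts place 3 counts over that group, and such bounds and intervals cover counting error only. Scripts were tested on simulated data. Other settings were RLE factors, library totals alone, no filter, DESeq2 1.42.0, other sets of libraries, a 2-fold threshold, adjacent library numbers as a block and leaving out each library.

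Named genes are the 12 largest called changes each way at an average of at least 4 log2 CPM, up to 4 called genes of each list by smallest p (2 genes of a list with none called), the 8 largest called differences from BAM each way at the same level, and a panel of 20 genes. Predicted genes, histone and immune receptor segment genes were left out of the ranked sets, and some genes that the rule names are not reported here. Adora3, Aif1, Ccnb1, Cdkn1a, Hbb-bs, Igf1, Lgmn, Lin28a, Naglu, Plk1, Psmb10 and Top2a are outside that rule and were chosen after their values were seen. The comparison and the 43 gene lists were chosen with earlier results of these data known.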

Additional observations from a re-analysis of the deposited data

Results flagged for a closer look

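The change from E12.5 to E18.5 differed between microglia and BAM, by the test of the difference itself in edgeR, for 18 of the named genes. The difference in log2 change, microglia minus BAM, was 3.7429 for Gpr165, 2.9464 for Lpl, 2.1465 for Spp1 and 2.1097 for Bmp1, which encodes a protease that matures collagen. It was 1.948 for Slc43a3, a purine base transporter, 1.8981 for Pif1, a DNA helicase, 1.8395 for Tspan32, a tetraspanin of blood cells, and 1.7887 for Slc16a1. Smaller called differences in the same direction were 0.64567 for Fcrls and 1.029 for Mcm5.

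Differences in the other direction were -4.6163 for Trpm2, -4.5076 for Pla2g7, -3.7442 for Cd93, a receptor of endothelial and myeloid cells, and -3.2281 for F13a1. They were -3.1826 for Ccn1, a matricellular protein, -3.1286 for Clec10a, a lectin of macrophages, -2.9356 for Cd38, an enzyme that consumes NAD, and -2.9063 for Serpine2, a secreted protease inhibitor. The difference was not called in 4 of the 6 fits that left out a microglia library for F13a1 (adjusted p up to 0.117) and for Clec10a (up to 0.139), and in 3 of 6 for Fcrls (up to 0.0573). With 7 pairs of adjacent library numbers as a block (14 of the 23 libraries, 1 pair of them at E12.5), 7 of the 18 differences were not called in edgeR. They were 1.326 for Tspan32 (adjusted p = 0.2074), 1.637 for Pif1 (0.08585), 0.2389 for Fcrls (0.7736), 0.8186 for Mcm5 (0.09711), -2.278 for Serpine2 (0.4544), -2.845 for F13a1 (0.4406) and -2.511 for Clec10a (0.1493). The same 14 libraries without the block left these 7, Ccn1 (adjusted p = 0.1011) and Cd38 (0.2358) not called. With a block of all 11 adjacent pairs F13a1 (0.08614) and Clec10a (0.08799) were not called, and in the same 22 libraries without the block F13a1 (0.05095) and Clec10a (0.06084) were not. These last 3 settings were chosen after seeing the data.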

How the results depend on the processing

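No named gene that was called in the main fit or in the other setting reversed its change or its microglia minus BAM difference. Where it was called in neither, the sign differed 11 times for the change and 6 times for the difference, over genes and settings. Of 147 called named genes, 112 kept the call in all 6 fits that left out a library. The number of genes called for the change, 1637, was 2493 with DESeq2, 1038 with all 39 libraries and the R10 E18.5 libraries as own groups, 86 when a fold above 2 was tested, and 977 to 1767 without 1 library. The number called for the difference, 458, was 942 with DESeq2, 961 with no filter on low counts, 44 when a fold above 2 was tested, and 183 with adjacent library numbers as a block (7 pairs). In settings chosen after seeing the data it was 121 in the 14 libraries of those pairs without the block, 826 with all 11 adjacent pairs as a block and 502 in their 22 libraries without it. No paired analysis was possible for the change within microglia because no label pairs libraries across stages. Sign changes of list medians were recorded only where the main median exceeded the SD of the list's level between libraries of a stage. List medians changed sign for the lymphoid list (0.1046 with no filter, 0.06176 with R10 as own groups, from -0.8291) and for the granulocyte and mast cell list (1.064 with the compared groups alone, -1.922 to 0.599 without 1 library, from -1.652). They also did for the lipoprotein and lipid handling list (-0.02721 to 0.4186 without 1 library, from 0.2813). The cause was not tested. E18.5 replicate 2, the shallowest library, limits what can be seen of low genes.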
